A study of Mus musculus with 18 samples.

Results

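The 10 genes described here belong to the oxidative stress defense and were followed through all 6 groups of an RNA-sequencing experiment on NIH-3T3 cells, an established line of mouse embryonic fibroblasts. They were chosen by symbol as genes known to be driven through the antioxidant response element (ARE), and they are Hmox1, Osgin1 and Nqo1, the glutathione genes Gclc, Gclm and Gsr, and the thioredoxin genes Txn1, Txnrd1, Prdx1 and Srxn1. All 10 were found among the 23420 gene symbols of the count table, and all 10 were among the 11762 genes that passed the filter on low counts. The question was which of them rose less after proteasome inhibition in cells without the transcription factor Nrf1, whose gene is Nfe2l1.

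WT cells and a knockout line made with CRISPR/Cas9 (Nrf1-KO) were each given DMSO as vehicle or 200 nM carfilzomib (CFZ), an irreversible proteasome inhibitor, for 6 h or 24 h. Each group had 3 biological replicates, which gave 18 libraries. The labels give no time for DMSO, so each CFZ group was set against the same DMSO libraries of its line at both times. A single knockout line was used, so the loss of Nfe2l1 and any other difference of that line cannot be told apart.

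As background, Nrf1 and its relative Nrf2 (gene Nfe2l2) are CNC-bZIP transcription factors that pair with small Maf proteins and bind the ARE. Nrf2 is normally held in the cytosol and sent to the proteasome by Keap1, whereas Nrf1 sits in the endoplasmic reticulum membrane and is best known for raising proteasome genes when the proteasome is blocked. The genes they share make glutathione, keep thioredoxin and peroxiredoxin in working order, break down heme and detoxify quinones.

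Total counts per library ran from 8333148 to 23917081 with a median of 14419832, and the shallowest was Nrf1-KO replicate 3 at 6 h. Gene positions are from GENCODE M21 on GRCm38. Levels are CPM, that is, counts relative to the library total after TMM scaling. Changes and differences are on the log2 scale, a difference in response being that of Nrf1-KO minus that of WT cells. A response is called smaller or less where this difference was negative and larger or more where it was positive. This holds also for genes that fell, so these words give a sign and not a size. The adjusted p-values come from the quasi-likelihood test of edgeR over all 11762 genes, with 0.05 as the threshold. For each of the 18 libraries the nearest other library was one of its own group. Nfe2l1 itself stood at 457, 437 and 449 CPM in the 3 WT DMSO libraries and at 174, 185 and 181 in the 3 Nrf1-KO DMSO libraries, with -1.31 (standard error 0.0338, edgeR adjusted p = 1.56e-24) between the lines. Reads of Nfe2l1 were thus still counted in Nrf1-KO cells, and in each treatment all Nrf1-KO libraries lay below all WT libraries. The gap was not constant. At 6 h of CFZ the Nrf1-KO libraries lay at 413 to 427 CPM beside 628 to 650 in WT cells, and at 24 h at 201 to 209.5 beside 555 to 580. The fibroblast markers Col1a1, Col1a2, Fn1 and Vim were each at 676 CPM or more in all libraries, Epcam and Cd3e had no count, and Myod1, Myog and Ckm had at most 2 counts each over all libraries. Of the epithelial markers, Krt14 was present at 54.4 to 145 CPM and Cdh1 at 0.333 to 13.0 CPM, and Krt5 had 1 count in all. The leukocyte markers Ptprc and Csf1r reached at most 1.33 and 7.004 CPM, and Pecam1, Cdh5 and Kdr of endothelium at most 0.337, 3.66 and 0.125 CPM. The summed leukocyte markers moved with CFZ, from between 0 and 0.203 CPM in WT DMSO to between 5.70 and 7.004 at 24 h, and from between 0.891 and 1.18 to between 1.59 and 2.25 in Nrf1-KO cells. The summed endothelial markers went from between 0.299 and 0.458 to between 2.54 and 3.47 CPM in WT cells and from between 0.392 and 0.600 to between 3.38 and 3.83 in Nrf1-KO cells. The summed CPM of 8 fibroblast markers was between 31581 and 34248 in WT DMSO and between 7959 and 8267 at 24 h, and between 25351 and 31827 and then between 10912 and 13020 in Nrf1-KO cells. The part of these differences in the results below was not tested, and in bulk RNA fewer cells of a kind and less RNA per cell cannot be told apart.

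Because the 10 genes were grouped by a DNA element, the RefSeq promoter windows of GRCm38.p6 (250 bases before to 50 after each start, 300 bases in all) were searched on both strands for the ARE core TGACNNNGC and for TGANTCAGC, the longer core bound by CNC factors with small Mafs. The window table held 7 of the 10 genes, and Hmox1, Gclc and Gsr were not in it. Of all 32851 windows, 12.4% held TGACNNNGC and 1.19% held TGANTCAGC, and some stretches match both. By gene, the shares were 14% and 1.37% of 27025. Prdx1 and Srxn1 are shown whole because their RNA climbed the most between 6 h and 24 h in Nrf1-KO cells, with the matches to either core in capitals.
Prdx1 promoter, chr4:116685349-116685648, plus strand: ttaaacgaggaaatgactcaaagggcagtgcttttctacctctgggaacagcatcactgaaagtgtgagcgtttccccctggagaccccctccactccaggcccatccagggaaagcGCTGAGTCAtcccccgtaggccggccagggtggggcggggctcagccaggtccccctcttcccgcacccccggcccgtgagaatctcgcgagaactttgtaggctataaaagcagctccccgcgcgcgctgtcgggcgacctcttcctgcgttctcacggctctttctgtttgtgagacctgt
Srxn1 promoter, chr2:152105274-152105573, plus strand: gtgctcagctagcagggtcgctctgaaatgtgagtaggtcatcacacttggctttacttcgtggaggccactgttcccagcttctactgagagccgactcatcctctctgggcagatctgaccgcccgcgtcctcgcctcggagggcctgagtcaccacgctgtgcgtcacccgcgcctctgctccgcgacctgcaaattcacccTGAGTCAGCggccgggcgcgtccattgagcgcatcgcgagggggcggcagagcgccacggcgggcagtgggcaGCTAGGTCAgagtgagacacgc
In Prdx1 a single stretch matched both cores on the opposite strand, starting 133 bases before the transcription start. Srxn1 held TGANTCAGC starting 45 bases before the start and TGACNNNGC on the opposite strand, starting 28 bases after it. Matches with 8 bases on either side are given for the other 3 genes that had one, Gclm and Txnrd1 with the ARE core and Osgin1 with TGANTCAGC, all on the opposite strand and written as the plus strand.
Gclm, chr3:122245415-122245439: tcccgggcGCACCGTCAactctcac
Txnrd1, chr10:82859106-82859130: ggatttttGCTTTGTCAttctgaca
Osgin1, chr8:119437040-119437064: gggcccctGCTGACTCAcgcttatg
The Txnrd1 match lay in 1 of its 3 windows. The single windows of Nqo1 and Txn1 held no match to either core, which says only that these letters were not in those 300 bases. The windows were also searched for the AP-1 core TGACTCA, which 5.2% of all windows held. Each TGANTCAGC match of Prdx1, Srxn1 and Osgin1 contains that core on the plus or the opposite strand. A match is a description of the sequence and no measure of binding.

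Before treatment the 10 genes spanned a wide range of levels. Per kilobase of exon, in WT DMSO cells, Txn1 was the highest at 662 ± 18.4 CPM (SD, n = 3), followed by Prdx1 at 214 ± 2.63 and Nqo1 at 72.8 ± 3.89. Hmox1 (38.7 ± 1.7), Gsr (30.8 ± 2.24), Txnrd1 (25.4 ± 1.84), Srxn1 (23.4 ± 0.229), Gclc (15.01 ± 0.388) and Gclm (11.5 ± 0.402) came next on the same scale. Txnrd1 and Srxn1 did not differ beyond their spread in this order, and Osgin1 was the lowest at 1.53 ± 0.0651.

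**Figure D1:**
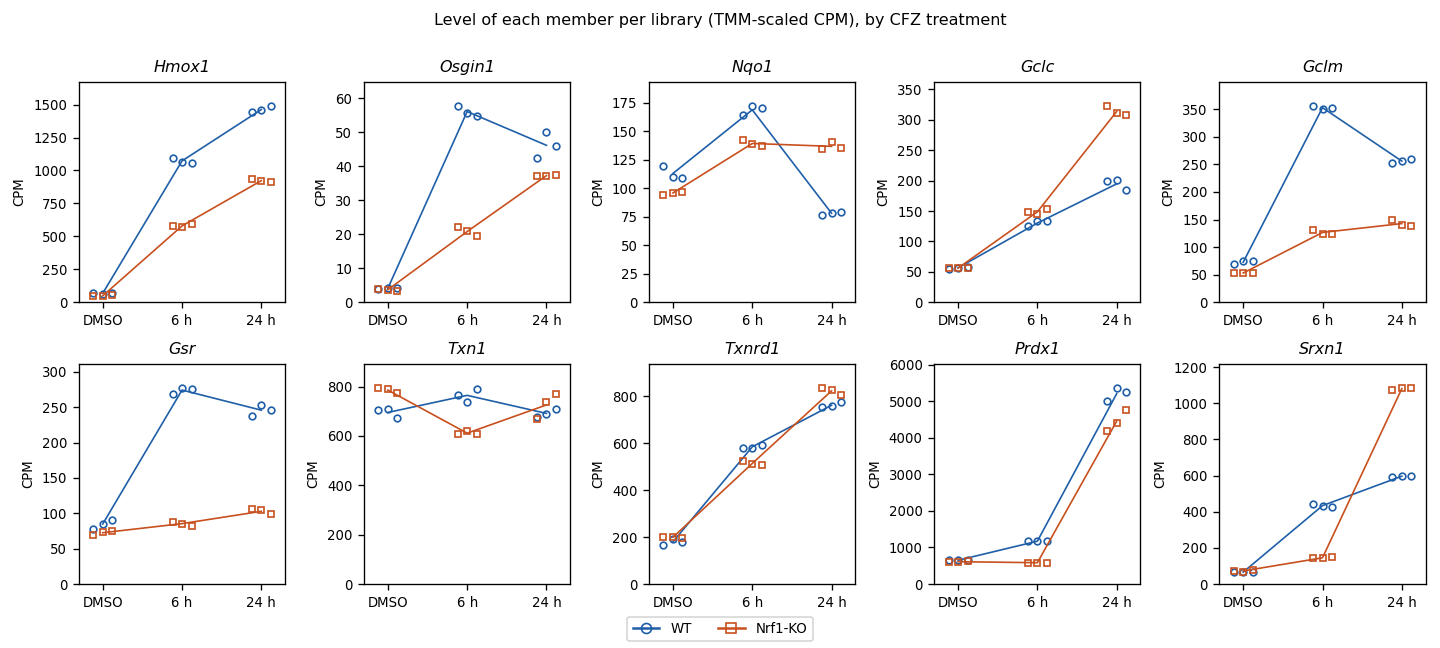
Level of each of the 10 genes in CPM (TMM-scaled, linear axes from 0) in every library of WT cells (circles) and Nrf1-KO cells (squares) by treatment, with lines through the group means. Gsr stays between 69.5 and 106 CPM in all Nrf1-KO libraries, while Srxn1 and Prdx1 are below WT at 6 h and climb by 24 h.

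In WT cells at 6 h of CFZ all 10 genes were higher, against 35.6% of all genes tested (36.2% were lower), their median log2 change was 1.70, and 7 were up at least 2-fold, against 3.98%. With upper-quartile scaling or library size alone 9 were higher, Txn1 being the exception. At 24 h, 8 of the 10 were higher (background 43.2%), all of them at least 2-fold (background 10.5%), Nqo1 was lower (background 40.5%) and Txn1 did not pass the threshold. In Nrf1-KO cells at 6 h, 8 were higher (background 34.5%), 5 of them at least 2-fold (background 3.3%), while Txn1 was lower (background 35%) and Prdx1 did not pass. At 24 h, 9 were higher in Nrf1-KO cells (background 44.4%), 7 of them at least 2-fold (background 11.5%), and Txn1 was lower (background 41.1%). The median over all genes tested was between -0.019 and 0.030 in these 4 comparisons.

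**Figure D2:**
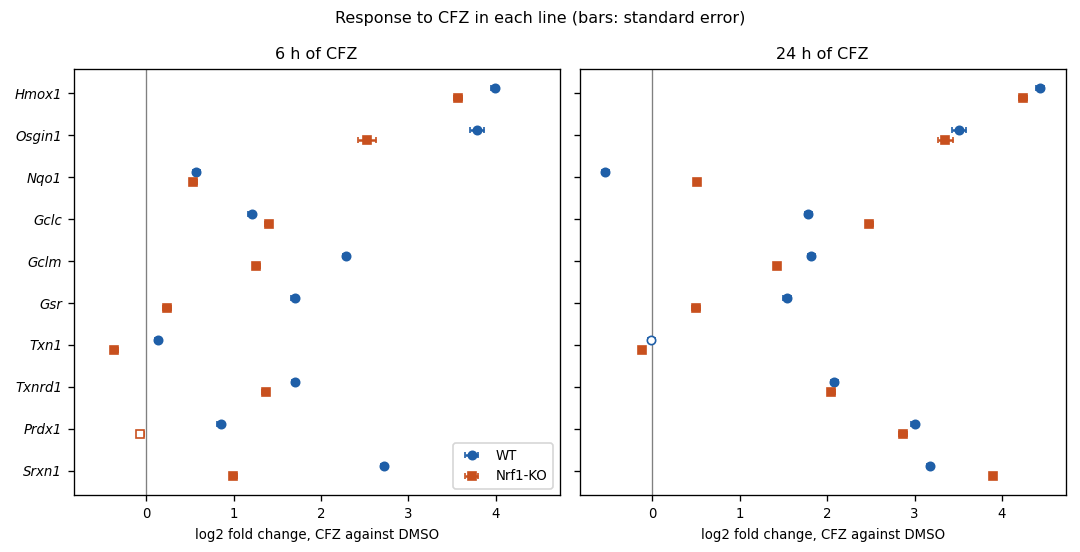
Log2 fold change of each gene after CFZ against DMSO in WT cells (circles) and Nrf1-KO cells (squares) at 6 h (left) and 24 h (right), with bars for the standard error and open symbols for values that did not pass the threshold. Hmox1 and Osgin1 have the largest WT responses of the 10 at both times, and Nqo1 is the gene on opposite sides of 0 in the lines at 24 h.

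Hmox1 encodes heme oxygenase 1, which breaks heme down to biliverdin, iron and carbon monoxide. It lies at chr8:75093621-75100589 on the plus strand. It stood at 69.7, 64.4 and 69.3 CPM in WT DMSO, at 1096, 1065 and 1057 at 6 h and at 1443, 1458 and 1488 at 24 h. In Nrf1-KO cells the libraries read 45.7, 47.5 and 52.5 in DMSO, 575, 571 and 593 at 6 h and 938, 921 and 909.7 at 24 h. Both lines thus had no overlap between treatments, and every Nrf1-KO library was under all WT libraries given that treatment. The rise was 15.8-fold and 21.6-fold in WT cells and 11.8-fold and 18.9-fold in Nrf1-KO cells. Hmox1 was already lower in Nrf1-KO cells in DMSO, with -0.47 (standard error 0.0467, edgeR adjusted p = 4.48e-10). Beyond that the response was smaller, with -0.42 (standard error 0.0592, edgeR adjusted p = 1e-06) at 6 h and -0.19 (standard error 0.0588, edgeR adjusted p = 0.00556) at 24 h. The 24 h value did not pass without Nrf1-KO DMSO replicate 3 (-0.12, edgeR adjusted p = 0.0721, the highest of 19 alternatives, of which the lowest was 0.000203).

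Osgin1, a growth regulator induced by oxidative stress, had the lowest counts of the set (chr8:119434124-119446256 on the plus strand). WT libraries held 3.91, 4.25 and 4.11 CPM in DMSO, 57.7, 55.8 and 55.0 at 6 h and 42.4, 50.2 and 46.0 at 24 h. Nrf1-KO libraries held 4.01, 3.69 and 3.39 in DMSO, 22.1, 20.9 and 19.4 at 6 h and 37.2, 37.2 and 37.5 at 24 h. In DMSO the lines overlapped, at 6 h the WT libraries were all at least 55.0 and the Nrf1-KO libraries at most 22.1, and at 24 h the gap had narrowed. The response at 6 h was smaller in Nrf1-KO cells, with -1.26 (standard error 0.150, edgeR adjusted p = 4.37e-08), and at 24 h the difference was -0.16 (standard error 0.145, edgeR adjusted p = 0.354).

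Nqo1, a quinone reductase that uses NADH or NADPH, moved the least among the genes of this first group (chr8:107388225-107403206 on the minus strand). It read 119.99, 110.0 and 109 CPM in WT DMSO, 164, 172 and 170.1 at 6 h and 77.0, 78.5 and 78.8 at 24 h, and 94.2, 96.3 and 97.1 in DMSO, 143, 139 and 137 at 6 h and 135, 140.2 and 135 at 24 h in Nrf1-KO cells. All WT libraries were thus above DMSO at 6 h and below it at 24 h, whereas the Nrf1-KO libraries were above DMSO at both times. At 6 h the difference in response was -0.037 (standard error 0.0527, edgeR adjusted p = 0.623), which did not pass the threshold. At 24 h WT Nqo1 was lower than in DMSO, with -0.53 (standard error 0.0395, edgeR adjusted p = 7.2e-14), Nrf1-KO Nqo1 was higher, with 0.51 (standard error 0.0369, edgeR adjusted p = 3.45e-14), and the difference of the responses was 1.05 (standard error 0.0540, edgeR adjusted p = 7.28e-17).

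Glutathione is made by glutamate-cysteine ligase, whose catalytic subunit is Gclc and whose modifier subunit is Gclm. For these partners the difference in response between the lines had opposite signs. Gclc lies at chr9:77754535-77794485 on the plus strand and Gclm at chr3:122245557-122270732 on the plus strand. Gclc stood at 55.0, 56.7 and 57.9 CPM in WT DMSO, 124.67, 133 and 133 at 6 h and 199, 200.3 and 185 at 24 h, and at 56.7, 56.1 and 55.7 in DMSO, 148, 144 and 154 at 6 h and 322, 311 and 307 at 24 h in Nrf1-KO cells. The lines overlapped in DMSO (log2 difference -0.0084, edgeR adjusted p = 0.892), and under CFZ each Nrf1-KO library was above each WT library. Its response was larger in Nrf1-KO cells, with 0.20 (standard error 0.0597, edgeR adjusted p = 0.00935) at 6 h and 0.70 (standard error 0.0571, edgeR adjusted p = 4.57e-12) at 24 h. The 6 h value did not pass without WT 6 h replicate 1 (0.14, edgeR adjusted p = 0.084, the highest of 19 alternatives).

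In WT cells Gclm rose 4.87-fold at 6 h and 3.53-fold at 24 h. In Nrf1-KO cells it rose 2.39-fold and 2.69-fold. It read 69.6, 74.0 and 74.0 CPM in WT DMSO, 355, 351 and 352 at 6 h and 252, 256 and 260.2 at 24 h, against 53.1, 53.1 and 52.7 in DMSO, 132, 124 and 124 at 6 h and 149, 140.2 and 139 at 24 h in Nrf1-KO cells. Every Nrf1-KO library was below every WT library in each treatment, by 1.37-fold in DMSO, 2.78-fold at 6 h and 1.80-fold at 24 h. The response was smaller, with -1.02 (standard error 0.0548, edgeR adjusted p = 5.38e-16) at 6 h and -0.39 (standard error 0.0540, edgeR adjusted p = 2.2e-07) at 24 h. In GENCODE M21, 4.71% of the exonic bases of Gclm overlap Gm17494 on the opposite strand and 3.88% overlap Gm6061 on the same strand. Of its read-length stretches, 2.04% are shared with 9 other genes, so a small part of its count is uncertain.

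Gsr, glutathione reductase, returns oxidized glutathione to its reduced form and responded the least to CFZ in Nrf1-KO cells among the 3 glutathione genes (chr8:33652523-33698163 on the plus strand). WT libraries held 78.4, 85.6 and 90.6 CPM in DMSO, 269, 277 and 276 at 6 h and 238, 253 and 246 at 24 h. Nrf1-KO libraries held 69.5, 73.5 and 74.6 in DMSO, 88.3, 85.4 and 82.5 at 6 h and 106, 104 and 98.5 at 24 h. The lowest WT library under CFZ was at 238 CPM and the highest Nrf1-KO library at 106. Gsr rose 3.24-fold and 2.91-fold in WT cells and 1.18-fold and 1.41-fold in Nrf1-KO cells, and the response differed, with -1.46 (standard error 0.0635, edgeR adjusted p = 3.78e-18) at 6 h and -1.04 (standard error 0.0616, edgeR adjusted p = 2.18e-15) at 24 h. Its level was lower in Nrf1-KO cells at both times, by 3.20-fold and 2.40-fold.

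Of the thioredoxin genes, Txn1 encodes thioredoxin and Txnrd1 the reductase that recharges it. They lie at chr4:57943373-57956411 on the minus strand and chr10:82833951-82897712 on the plus strand. Txn1 moved within a narrow range. Its 18 libraries lay between 606 and 794 CPM, with 673 to 709 in WT DMSO, 739.7 to 789 at 6 h and 677 to 709 at 24 h. In Nrf1-KO cells they lay at 775 to 794 in DMSO, 606 to 620.0 at 6 h and 671 to 770.3 at 24 h. At 6 h it was higher than in DMSO in WT cells, with 0.14 (edgeR adjusted p = 0.00221) and lower in Nrf1-KO cells, with -0.36 (edgeR adjusted p = 1.05e-09). The WT call did not hold on library size alone (0.0049, edgeR adjusted p = 0.912) or under upper-quartile scaling (0.028, edgeR adjusted p = 0.539), where the medians of all genes were -0.15 and -0.13. At 24 h the WT value was -0.0077 (edgeR adjusted p = 0.858), and it was called lower when upper quartiles set the scale (-0.14) and when library size alone did (-0.11), where the medians of all genes were -0.11 and -0.080. The response at 6 h differed between the lines, with -0.50 (standard error 0.0548, edgeR adjusted p = 8.51e-09), and the difference at 24 h was -0.11 (standard error 0.0545, edgeR adjusted p = 0.0921). The latter passed with library size alone (-0.18, edgeR adjusted p = 0.00321) and without Nrf1-KO 24 h replicate 3 (-0.15, edgeR adjusted p = 0.00901), within a range from 0.00321 to 0.323 over 19 alternatives.
Txnrd1 rose in both lines at both times. WT libraries were at 168 to 194 CPM in DMSO, 579.7 to 595 at 6 h and 754 to 775 at 24 h, and Nrf1-KO libraries at 196 to 201, 508 to 523 and 807 to 836. The response was smaller in Nrf1-KO cells, with -0.33 (standard error 0.0535, edgeR adjusted p = 7.28e-06) at 6 h, while at 24 h the difference was -0.037 (standard error 0.0529, edgeR adjusted p = 0.574).

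Prdx1 encodes a peroxiredoxin that reduces hydrogen peroxide, and Srxn1 encodes sulfiredoxin, which repairs peroxiredoxins that have been overoxidized. They lie at chr4:116685544-116700822 on the plus strand and chr2:152105516-152111376 on the plus strand. Both responded less in Nrf1-KO cells at 6 h and reached high levels in both lines at 24 h. Prdx1 stood at 646, 659 and 644 CPM in WT DMSO, 1166, 1183 and 1169.8 at 6 h and 5002, 5364 and 5262 at 24 h. The Nrf1-KO libraries read 591, 598 and 643 in DMSO, 582, 581 and 588 at 6 h and 4201, 4419 and 4757 at 24 h. At 6 h WT Prdx1 had risen 1.80-fold and Nrf1-KO Prdx1 had a log2 change of -0.066 (edgeR adjusted p = 0.134), which was called lower under 3 of 13 alternatives, at -0.14 with upper-quartile scaling, -0.18 with library size alone and -0.12 without the filter (adjusted p from 0.000127 to 0.555 over the 13). By 24 h the rise was 8.02-fold and 7.30-fold. The response differed, with -0.92 (standard error 0.0554, edgeR adjusted p = 1.05e-14) at 6 h and -0.14 (standard error 0.0544, edgeR adjusted p = 0.0326) at 24 h. The latter did not pass under 9 of its 19 alternatives, namely upper-quartile scaling, the compared groups alone, and without WT DMSO replicate 1 or 3, WT 24 h replicate 2 or 3, Nrf1-KO DMSO replicate 3 or Nrf1-KO 24 h replicate 1 or 2. Over these 9 the value lay between -0.096 and -0.13, and the adjusted p over all 19 between 0.000878 and 0.126.

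Srxn1 crossed over. WT libraries held 66.5, 65.2 and 65.8 CPM in DMSO, 444, 432 and 424 at 6 h and 594, 598 and 597 at 24 h, and Nrf1-KO libraries held 71.4, 68.9 and 76.4 in DMSO, 144, 142 and 148 at 6 h and 1074, 1083 and 1084 at 24 h. At 6 h every Nrf1-KO library was at most 148 CPM and every WT library at least 424, and at 24 h every Nrf1-KO library was at least 1074 and every WT library at most 598. Its response was smaller in Nrf1-KO cells, with -1.72 (standard error 0.0536, edgeR adjusted p = 2.63e-21) at 6 h, the most negative value of the 10, and larger by 0.72 (standard error 0.0513, edgeR adjusted p = 1.87e-13) at 24 h. From 6 h to 24 h Srxn1 rose 1.38-fold in WT cells and 7.46-fold in Nrf1-KO cells.

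Set side by side, the fewest of the 10 genes differed between the lines before treatment. In DMSO, 3 of the 10 genes were higher in Nrf1-KO cells (Srxn1, Txn1 and Txnrd1, background 25.7%), 4 were lower (Hmox1, Nqo1, Gclm and Gsr, background 29.1%), and Gclc, Osgin1 and Prdx1 did not pass. Both counts lay near their backgrounds. Without Nrf1-KO DMSO replicate 3, Srxn1 did not pass (0.091, edgeR adjusted p = 0.0818) and Prdx1 did (-0.13, edgeR adjusted p = 0.0101). The largest difference in size was that of Hmox1 (-0.47), and 0 of the 10 reached 2-fold (background 4.97%) in edgeR or DESeq2, also among the 8 with an unadjusted p under 0.05 in edgeR. At 6 h of CFZ, 9 were lower in Nrf1-KO cells (background 30.8%) and Gclc was higher (background 30.5%). Of the 9, Srxn1, Gsr, Gclm, Osgin1 and Prdx1 were at least 2-fold lower (background 3%). Prdx1 stood at the limit (-1.01) and was past it in edgeR but not in DESeq2 (-0.99), in upper-quartile scaling (-0.96) or with library size alone (-0.94). At 24 h, 5 were lower (Hmox1, Osgin1, Gclm, Gsr and Prdx1, background 36.4%), 4 were higher (Nqo1, Gclc, Txnrd1 and Srxn1, background 35.6%), and Txn1 did not pass. Gsr was the one gene at least 2-fold lower (background 5.53%). Without Nrf1-KO 24 h replicate 1, Txn1 was higher there (0.14, edgeR adjusted p = 0.000532), as under upper-quartile scaling (0.11, edgeR adjusted p = 0.0142) and without the expression filter (0.087, edgeR adjusted p = 0.033).

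The difference in response to CFZ was negative for 8 of the 10 genes at 6 h (background 18.4%) and positive for Gclc (background 19.8%). The median over the 10 was -0.71 beside 0.017 over all genes tested. Among the 8, Txn1 changed in opposite directions, by 0.14 in WT cells and by -0.36 in Nrf1-KO cells. Srxn1, Gsr, Osgin1 and Gclm differed at least 2-fold (background 1.57%). At 24 h the difference was negative for 4 genes (Hmox1, Gclm, Gsr and Prdx1, background 30%) and positive for 3 (Nqo1, Gclc and Srxn1, background 29.7%). The median was -0.12 beside 0.0049, and the counts at 24 h lay closer to the background than those at 6 h. For Nqo1 the responses had opposite signs, with -0.53 in WT and 0.51 in Nrf1-KO cells. Nqo1 and Gsr differed at least 2-fold then, in opposite directions (background 8.6%). For comparison, 31 proteasome subunit genes had a smaller response in Nrf1-KO cells in all 31 cases at both times, with a median of -1.14 at 6 h and -1.14 at 24 h. The members with a smaller response at both times were Hmox1, Gclm, Gsr and Prdx1, with -0.19, -0.39, -1.04 and -0.14 at 24 h in that order. The 24 h calls of Hmox1 and Prdx1 were lost under 1 and 9 of 19 alternatives.

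**Figure D3:**
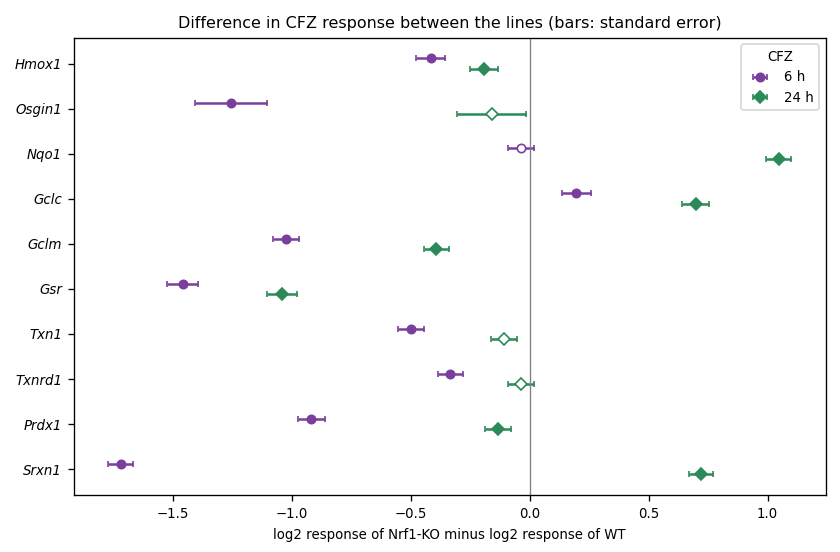
Difference between the log2 responses of Nrf1-KO and WT cells to CFZ for each gene at 6 h (circles) and 24 h (diamonds), with bars for the standard error and open symbols for values that did not pass the threshold. All 10 diamonds lie to the right of their circles, and Srxn1 moves from -1.72 to 0.72.

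Both differences share the DMSO libraries, so the change between the times was tested on the CFZ libraries alone, as the difference between the lines in the step from 6 h to 24 h. This comparison was chosen after the values had been seen. It was positive for all 10 genes (background 20.7%, with 22.2% negative), with a median of 0.57 beside -0.00069 over all genes. A positive value means that the log2 step from 6 h to 24 h was higher in Nrf1-KO than in WT cells. The value was 2.44 (standard error 0.0479, edgeR adjusted p = 5.01e-27) for Srxn1, 1.10 (standard error 0.0827, edgeR adjusted p = 2.09e-12) for Osgin1 and 1.08 (standard error 0.0540, edgeR adjusted p = 1.04e-16) for Nqo1, the 3 genes past 2-fold (background 1.54%). The smallest was that of Hmox1, 0.22 (standard error 0.0509, edgeR adjusted p = 0.000565). In WT cells alone, 5 genes were higher at 24 h than at 6 h (background 36.9%) and 5 were lower (background 35.4%), the latter being Nqo1, Gclm, Gsr, Osgin1 and Txn1. Prdx1 rose and Nqo1 fell at least 2-fold over that step (background 12.1%). In Nrf1-KO cells 9 were higher at 24 h (background 38.7%), 3 of them at least 2-fold (Prdx1, Srxn1 and Gclc, background 6.56%), and Nqo1 did not pass. Gclm, Gsr, Osgin1 and Txn1 thus fell over the step in WT cells and rose in Nrf1-KO cells. Over the proteasome subunits the same comparison gave 7 positive and 4 negative of 31, with a median of 0.0024.

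The share of higher genes among all called ones depended on the scaling, which bears on the backgrounds above. With library size alone it was 35.4% in place of 49.6% in WT cells at 6 h, 36.4% in place of 49.7% in Nrf1-KO cells at 6 h and 41.6% in place of 52% at 24 h. Between the lines it was 57.7% in place of 46.9% in DMSO and 60.8% in place of 49.8% at 6 h. For the change between the times in the difference of responses it was 30.1% in place of 48.2%, and all 10 members were still called. With upper-quartile scaling it was 37.9% in WT cells at 6 h and 57.9% between the lines at 6 h. For the difference of responses it was 60.3% under upper quartiles and 56.5% under library size alone in place of 51.8% at 6 h, and 53.1% and 40% in place of 49.8% at 24 h. Library size alone also moved the median of all genes by over 0.1 in the 4 comparisons of CFZ with DMSO, to -0.15 and -0.080 in WT cells and to -0.12 and -0.15 in Nrf1-KO cells at 6 h and 24 h. Upper-quartile scaling moved it to -0.13 and -0.11 in WT cells and to -0.082 and -0.077 in Nrf1-KO cells.

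The regulators of the ARE were measured in the same libraries. Nfe2l2 rose with CFZ in both lines, from 84.2 ± 1.78 CPM (SD, n = 3) to 143 ± 3.72 and 148 ± 4.30 in WT cells and from 109.5 ± 1.30 to 169 ± 2.44 and 152 ± 4.37 in Nrf1-KO cells. It was higher in Nrf1-KO cells in DMSO, with 0.38 (edgeR adjusted p = 1.68e-10) and at 6 h, with 0.24 (edgeR adjusted p = 5.25e-07), and at 24 h the difference was 0.041 (edgeR adjusted p = 0.283). Its response was smaller in Nrf1-KO cells, with -0.14 (edgeR adjusted p = 0.028) at 6 h and -0.34 (edgeR adjusted p = 6.42e-07) at 24 h. Keap1, the Nrf2 inhibitor, went in opposite directions. It rose from 54.6 ± 1.08 to 90.3 ± 4.48 and 83.2 ± 2.81 in WT cells and fell from 55.4 ± 1.40 to 44.7 ± 1.96 and 28.7 ± 0.399 in Nrf1-KO cells. The difference in response was -1.04 (standard error 0.0646, edgeR adjusted p = 2.15e-14) at 6 h and -1.56 (standard error 0.0654, edgeR adjusted p = 4.26e-19) at 24 h. Gm16754 on the opposite strand covers 10.9% of its exonic bases, and the use of strand in the counting is not given in the sources used here.
Bach1, which competes with Nrf2 for small Mafs and represses Hmox1, rose in both lines at 6 h. At 24 h it was at 121 ± 1.45 CPM in the Nrf1-KO line beside 70.4 ± 2.97 in WT cells. Its response was smaller in Nrf1-KO cells at 6 h, -0.64 (edgeR adjusted p = 2.48e-09), and larger at 24 h, 0.30 (edgeR adjusted p = 0.00019). The small Maf genes Mafg, Mafk and Maff also rose in both lines at both times. In level, Mafk was higher in Nrf1-KO cells in DMSO, with 0.40 (edgeR adjusted p = 9.15e-08), and at 24 h, with 0.11 (edgeR adjusted p = 0.00567). Maff was 7.62 to 9.02 CPM in Nrf1-KO and 3.35 to 4.66 in WT DMSO, with 1.04 (edgeR adjusted p = 1.1e-08), and 52.5 to 57.2 beside 40.2 to 42.9 at 24 h, with 0.38 (edgeR adjusted p = 3.76e-07). Mafg was higher in Nrf1-KO DMSO, with 0.18 (edgeR adjusted p = 0.0279), and lower at 24 h, with -0.17 (edgeR adjusted p = 0.00372). At 6 h the Mafg libraries lay at 46.8 to 54.2 CPM in Nrf1-KO and 71.1 to 81.4 in WT cells. Those of Mafk lay at 51.7 to 54.7 beside 43.5 to 44.4 then, and those of Maff overlapped, at 21.3 to 23.9 beside 20.2 to 23.0. At 24 h the responses of Mafg, Mafk and Maff were smaller in Nrf1-KO cells, with -0.34 (edgeR adjusted p = 0.000797), -0.28 (edgeR adjusted p = 0.00026) and -0.66 (edgeR adjusted p = 8.41e-05) in that order. Mafg and Maff also rose less in Nrf1-KO cells at 6 h. Of the 7 regulators, 5 had a smaller response at 6 h (background 18.4%), 2 of them at least 2-fold (background 1.57%). Only Nfe2l1, the gene targeted in the knockout line, had a larger response (background 19.8%).

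**Figure D4:**
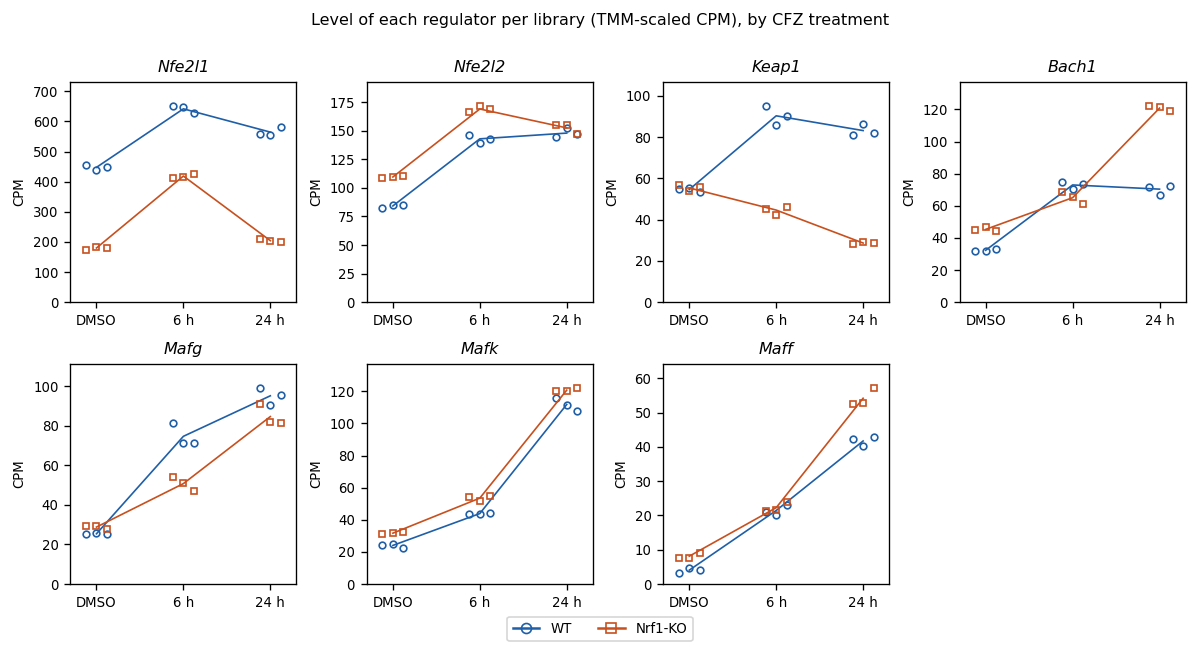
Level of 7 regulators of the ARE in CPM (TMM-scaled, linear axes from 0) in every library of WT cells (circles) and Nrf1-KO cells (squares) by treatment, with lines through the group means. Keap1 rises in WT cells and falls in Nrf1-KO cells, and the Nrf1-KO libraries of Nfe2l1 lie below the WT libraries in each treatment.

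A list of 63 other genes of the pathway was read beside the 10, of which 58 passed the filter. The genes that did not pass were Gpx3, Gsta2, Gsta3, Gstt1 and Akr1b3. In WT cells 31 of the 58 were higher and 16 lower at 6 h (backgrounds 35.6% and 36.2%), and 36 were higher and 16 lower at 24 h (43.2% and 40.5%). In Nrf1-KO cells 21 were higher and 28 lower at 6 h (34.5% and 35%), so that the share of higher genes was close to the background, and 32 were higher and 21 lower at 24 h (44.4% and 41.1%). The response was smaller in Nrf1-KO cells for 30 and larger for 8 at 6 h, with a median of -0.19, and smaller for 28 and larger for 16 at 24 h, with a median of -0.15. These counts stand beside the backgrounds of 18.4% and 19.8% at 6 h and 30% and 29.7% at 24 h, which are also those for the single lists that follow.

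**Figure D5:**
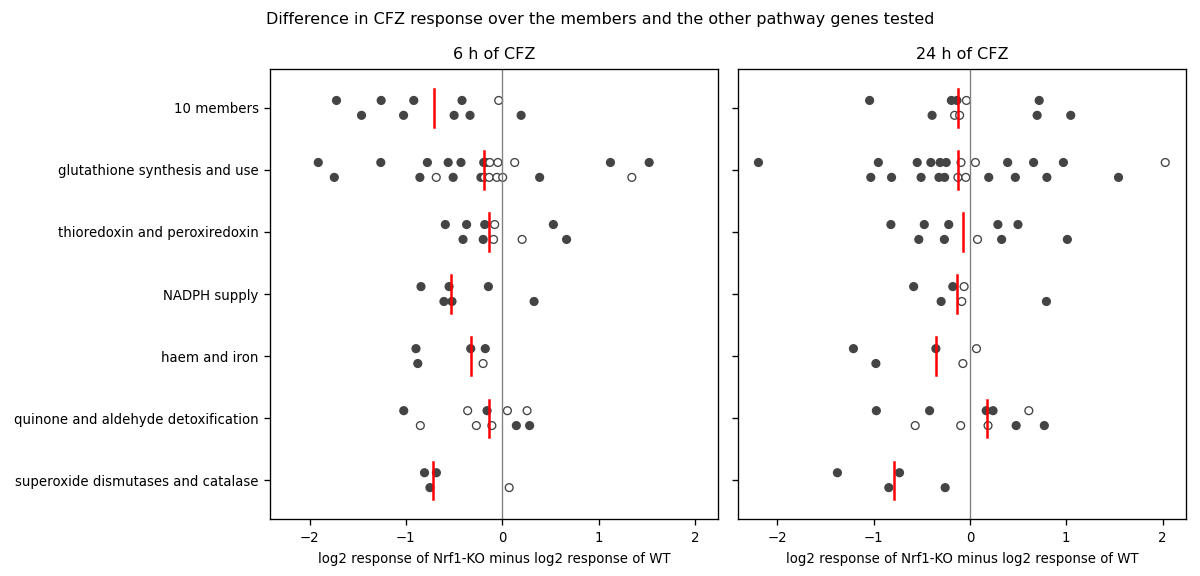
Difference between the log2 responses of Nrf1-KO and WT cells to CFZ for the 10 members and for each tested gene of 6 other pathway lists at 6 h (left) and 24 h (right), with filled points past the threshold, open points not past it and red lines at the list medians. The median of the superoxide dismutases and catalase lies at -0.72 and -0.79, and that of the members at -0.71 and -0.12.

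Among the 23 tested genes for making and using glutathione, 11 responded less and 3 more in Nrf1-KO cells at 6 h, and 11 less and 7 more at 24 h. Those that responded more at 6 h included Chac1, a glutathione-degrading enzyme, at 1.53 (standard error 0.0711, edgeR adjusted p = 1.93e-17), and Slc7a11, the cystine importer, at 1.12 (standard error 0.0835, edgeR adjusted p = 1.68e-12). Slc7a11 was lower in Nrf1-KO DMSO (33.4 ± 0.991 CPM beside 59.0 ± 4.09 in WT cells) and higher at 24 h (380.4 ± 29.9 beside 229 ± 2.37). Gsta4, a glutathione transferase for lipid aldehydes, had the pattern nearest to that of Prdx1. It went from 13.2 ± 0.938 to 24.2 ± 0.182 and 116 ± 3.25 CPM in WT cells and from 16.9 ± 0.443 to 9.22 ± 0.546 and 104 ± 5.99 in Nrf1-KO cells, with a difference in response of -1.74 (edgeR adjusted p = 5.36e-14) at 6 h. Glrx, a glutaredoxin, also responded less at 6 h, with -1.26 (edgeR adjusted p = 1.71e-08). At 24 h Gsto1, an omega-class transferase, responded more in Nrf1-KO cells, with 0.97 (edgeR adjusted p = 8.33e-16), and Gstm2 less, with -1.03 (edgeR adjusted p = 1.24e-09).
Of the 10 thioredoxin and peroxiredoxin genes, 5 responded less and 2 more at 6 h, and 5 less and 4 more at 24 h. Sesn2, a sestrin induced by stress, responded more in Nrf1-KO cells at both times, with 0.67 (edgeR adjusted p = 2.21e-09) at 6 h and 1.01 (edgeR adjusted p = 4.04e-14) at 24 h. Txnip, the thioredoxin-binding protein, fell in WT cells at 24 h, with -1.95 (edgeR adjusted p = 8.33e-27). Of the exonic bases of Txnip, 19.4% overlap a gene on the opposite strand. Among 6 genes that supply NADPH, the difference in response was negative for 5 and positive for 1 at 6 h, and negative for 3 and positive for 1 at 24 h. The positive one was Idh1, the cytosolic isocitrate dehydrogenase, which fell in both lines and fell less in Nrf1-KO cells. At 24 h its change was -1.89 (edgeR adjusted p = 3.45e-26) in WT cells and -1.09 in Nrf1-KO cells.
Of 5 heme and iron genes, 4 responded less at 6 h and 3 at 24 h. Blvrb, a biliverdin reductase, rose from 38.6 ± 0.653 to 218 ± 8.90 CPM at 24 h in WT cells and from 33.6 ± 0.666 to 96.7 ± 4.73 in Nrf1-KO cells, and Slc48a1, a heme transporter, had a difference in response of -1.21 (edgeR adjusted p = 3.61e-19) at 24 h. All 4 genes for superoxide dismutases and catalase had a negative difference in response at 24 h, and 3 of them did at 6 h. The most negative was Sod1, the cytosolic enzyme, which rose from 110.0 ± 3.84 to 431 ± 13.0 CPM in WT cells and from 124.70 ± 1.66 to 188 ± 9.34 in Nrf1-KO cells, -1.38 (edgeR adjusted p = 4.83e-20). Catalase (Cat) was lower in Nrf1-KO DMSO, with -0.50 (edgeR adjusted p = 3.94e-12), whereas Sod3, the secreted enzyme, was higher there, with 1.44 (edgeR adjusted p = 5.56e-23) and fell in WT cells at 24 h, with -2.53 (edgeR adjusted p = 5.77e-26). Sod3 fell further in Nrf1-KO cells at 24 h, with -2.79, which is what its negative difference means. Of these 4 genes, 3 were higher and 1 lower in WT cells at 24 h, and 1 was higher and 2 lower in Nrf1-KO cells.
Of 10 quinone and aldehyde genes, 2 responded less and 2 more at 6 h, and 2 less and 4 more at 24 h, shares near those of all genes tested (18.4% and 19.8%, then 30% and 29.7%). Aox1, an aldehyde oxidase, rose from 1.16 ± 0.375 to 11.7 ± 1.09 CPM in WT cells at 24 h, and Cbr3, a carbonyl reductase, responded less in Nrf1-KO cells at 6 h, with -1.02 (edgeR adjusted p = 2.27e-10). Its relative Cbr1 was higher in Nrf1-KO DMSO, with 0.39 (edgeR adjusted p = 0.000637).

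The genes whose pattern was most like each member were sought by the root mean square difference of log2 CPM, centered on each gene's mean over the 6 groups, among 10259 other genes (mean count 50 or more). The closest to Gsr were Nsfl1c (0.0895), Flywch1 (0.104) and Psmc2 (0.118), and the closest to Gclm were Nploc4 (0.23), Prepl (0.246) and Adrm1 (0.28). For Gclc they were Nedd4l (0.101), Trim16 (0.119) and Cpeb2 (0.145), and for Txnrd1 they were Zfp142 (0.12), Armc7 (0.151) and Ifrd1 (0.155). Hmox1 and Osgin1 stood close to each other (0.445), with Aox1 near both (0.622 and 0.458). Zfand2a was the third for Hmox1 (0.669) and the first for Srxn1 (0.413), and Sqstm1 was the first for Osgin1 (0.43). Gsta4 was the first for Prdx1 (0.245), Zfp777 for Nqo1 (0.153) and Bzw1 for Txn1 (0.0525). These are likenesses over 6 group means from the same libraries and carry no test.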

How the data were processed

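RNA from 18 NIH-3T3 cultures was sequenced by the authors from stranded mRNA libraries and processed with RNA Express (STAR and DESeq2). They deposited raw counts, whole reads for each of 23420 gene symbols, with no normalization. Versions, genome build, annotation and use of strand are not given in the sources used here. Groups came from the sample titles, and columns were matched by the names in the sample descriptions.

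Genes were filtered with edgeR 4.0.16 (R 4.3.3) at a minimum count of 10 and a minimum total of 15, and libraries were scaled by TMM. A quasi-likelihood model of the 6 groups was fitted to the 18 libraries together, and p-values were adjusted after Benjamini and Hochberg over 11762 genes. There were 12 comparisons, of which 1 was added after the values had been seen. Standard errors were derived as the absolute log2 fold change over the root of F. The members, gene lists and rules were chosen with earlier results of these data known. The genes named are the 10 members, 7 regulators, the pathway genes (mean count 50 or more) with the 3 largest changes in either direction in each of 4 comparisons, and the 3 genes most like each member. For Srxn1, Prdx1, Nqo1 and Txn1 only the nearest of those 3 was named. Exceptions named after their values were seen are the genes under the filter.

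Alternatives were DESeq2 1.42.0, upper-quartile scaling, library size alone, no filter, a mean count of at least 10, a fit to the compared groups, a block for replicate number, the omission of single libraries, and a minimum fold of 2. Replicate libraries differed beyond sampling noise (chi-square per degree of freedom from 1.438 to 8.469), and with a common biological coefficient of variation of 3.13% even small differences can pass. The series' design text and the study's methods call the replicates biological, while the sample titles only number them and nothing says how they were separated, so the spread may be partly technical. Positions and transcripts are from GENCODE M21 on GRCm38, matched by symbol, which need not be the authors' annotation.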

Additional observations from a re-analysis of the deposited data

Results flagged for a closer look

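The values here were picked out because the response to CFZ differed between the lines in edgeR's interaction test (Nrf1-KO minus WT, log2 scale, adjusted p under the threshold over all genes tested). At 6 h they were -0.42 for Hmox1, -1.26 for Osgin1, 0.20 for Gclc, -1.02 for Gclm, -1.46 for Gsr, -0.50 for Txn1, -0.33 for Txnrd1, -0.92 for Prdx1 and -1.72 for Srxn1. At 24 h they were -0.19 for Hmox1, 1.05 for Nqo1, 0.70 for Gclc, -0.39 for Gclm, -1.04 for Gsr, -0.14 for Prdx1 and 0.72 for Srxn1.

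Of the other pathway genes, the values at 6 h were 1.53 for Chac1, 1.12 for Slc7a11, 0.67 for Sesn2, -1.74 for Gsta4, -1.26 for Glrx and -1.02 for Cbr3. At 24 h they were 1.54 for Slc7a11, 1.01 for Sesn2, 0.97 for Gsto1, -1.03 for Gstm2, -1.21 for Slc48a1 and -1.38 for Sod1.

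The step from 6 h to 24 h also differed between the lines for all 10 members, by 0.22 for Hmox1, 1.08 for Nqo1, 0.50 for Gclc, 0.63 for Gclm, 0.30 for Txnrd1, 0.39 for Txn1, 2.44 for Srxn1, 0.42 for Gsr, 0.78 for Prdx1 and 1.10 for Osgin1.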

How the results depend on the processing

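Over the alternatives, 2088 values for single genes kept their direction and their side of the threshold, 14 lost the call, 13 gained it and 9 changed sign. No value that changed sign had passed the threshold. They were Gclc between the lines in DMSO (-0.0084 with TMM), at 0.0051 with upper-quartile scaling, 0.039 with library size alone, 0.0031 without the filter, 0.0021 with DESeq2, 0.010 with the compared groups only and 0.0062 without WT DMSO replicate 3, Txn1 in WT cells at 24 h, at 0.0077 without WT DMSO replicate 2 and 0.0088 without WT 24 h replicate 1, and Txnrd1 in the difference of responses at 24 h, at 0.011 without WT DMSO replicate 1. Over the libraries left out in turn these ranged from -0.017 to 0.0062 for Gclc, from -0.033 to 0.0088 for Txn1 and from -0.093 to 0.011 for Txnrd1. The cause was not tested.

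With a minimum fold of 2, the number of members called was 2 in place of 10 for 24 h against 6 h in WT cells, 5 in place of 9 for Nrf1-KO cells at 6 h, 3 in place of 9 for 24 h against 6 h in Nrf1-KO cells, 0 in place of 7 between the lines in DMSO, 5 in place of 10 at 6 h and 1 in place of 9 at 24 h. For the difference of responses it was 4 in place of 9 at 6 h, 2 in place of 7 at 24 h, and 3 in place of 10 for the change between the times, as this setting leaves out smaller changes by construction.

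Leaving out 1 library at a time gave 5 to 8 members called in the difference of responses at 24 h (7 with all libraries) and 8 or 9 at 6 h. Libraries that share a replicate number showed no clear shared deviation from their group means (correlation 0.0122 on average over 45 pairs, at most 0.0742). Whether cultures of the same number were handled together cannot be told from these values. With the replicate number as a block, 9 members were called in the difference of responses at 6 h and 7 at 24 h, and the difference of Prdx1 between the lines in DMSO passed (-0.090, edgeR adjusted p = 0.0263). With library size alone Nqo1 was called lower at 24 h than at 6 h in Nrf1-KO cells (-0.098, edgeR adjusted p = 0.0195). Osgin1, with 3.39 to 4.25 CPM in DMSO, had the largest standard errors of the 10.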

Other observations

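Outside the 10 members, the step from 6 h to 24 h of CFZ also differed between the lines in the other pathway genes, again in a comparison chosen after the values had been seen. Of the 58 tested, the difference (Nrf1-KO minus WT, log2 scale) was positive in 24 and negative in 14 in edgeR's test, with a median of 0.067, beside 20.7% and 22.2% of all genes tested. The NADPH-supplying genes were positive in 5 of 6 cases with a median of 0.34, and the glutathione genes in 11 of 23 with 6 negative and a median of 0.27. The superoxide dismutases and catalase were negative in 3 of 4 cases with a median of -0.24.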
